A study of Homo sapiens with 6 samples.

Results

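The genes described here build and feed the DNA replication fork. They are 49 named subunits and regulators of replication, and a probe set with that single gene symbol in the array's platform annotation was found for 49 of the 49. Where a symbol had more than 1 probe set, the one with the highest mean log2 over all arrays stood for the gene, and the same rule gave 18404 genes in all. The cells were MDA-MB-231, a widely used human breast cancer line of the triple-negative class. They had been kept for 25 days in DMEM with 10 mM fructose (3 arrays) or in DMEM with 25 mM glucose (3 arrays), and RNA was taken at about 70% confluency, some 24 hours after new medium. The sample titles call the arrays of a group biological replicates and do not say whether each culture was adapted on its own. All cultures came from the same line. The groups differ at once in which sugar was given and in how much of it, which cannot be told apart. Levels are log2 of the deposited RMA intensity, and every difference is fructose minus glucose on that scale, so that a difference of -1 would be a halving.

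Before a cell copies its DNA, the origin recognition complex, CDC6 and CDT1 load rings of MCM proteins onto replication origins, a step called licensing. The kinase CDC7 with DBF4 then lets CDC45 and the GINS complex join the ring to form the running helicase. Primase with polymerase alpha starts each strand, polymerases delta and epsilon extend it on the PCNA clamp placed by the RFC clamp loader, and RPA, FEN1 and LIG1 guard and join the pieces. Ribonucleotide reductase (RRM1 and RRM2), TYMS and TK1 supply the deoxynucleotides. Many of these genes are transcribed in late G1 and S phase under the E2F factors, and tumour cell lines that divide quickly express them at high levels.

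Because E2F factors are the textbook regulators of this gene set, the promoters were searched for E2F letters, and 9 stretches, chosen after the values were seen, are shown here. They come from members with the motif on either side of 0, and from ORC5 and PRIM1, which had the most negative differences of the licensing and polymerase genes and held none of the searched letters. RefSeq promoter windows (GRCh38.p14, 250 bases before to 50 after the start, the first start listed for a gene) matched 43 of the 49 members. MCM4, MCM5, GINS4, POLD3, RPA2 and RPA3 had no window. Each line gives 100 bases upstream of the start, from position -100 to -1 except for MCM6 (-170 to -71) and POLA1 (-160 to -61), 5′ to 3′ on the gene's strand, with a searched E2F motif in capitals.
PCNA (chr20:5126623-5126722, minus strand): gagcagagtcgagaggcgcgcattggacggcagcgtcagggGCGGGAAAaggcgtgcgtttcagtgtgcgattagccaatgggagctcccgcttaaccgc
MCM6 (chr2:135876514-135876613, minus strand): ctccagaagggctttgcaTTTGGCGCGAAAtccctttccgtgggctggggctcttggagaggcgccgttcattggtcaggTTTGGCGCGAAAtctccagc
GINS2 (chr16:85688955-85689054, minus strand): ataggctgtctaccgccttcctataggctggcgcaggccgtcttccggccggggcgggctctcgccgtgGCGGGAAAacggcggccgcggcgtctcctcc
POLA1 (chrX:24693758-24693857, plus strand): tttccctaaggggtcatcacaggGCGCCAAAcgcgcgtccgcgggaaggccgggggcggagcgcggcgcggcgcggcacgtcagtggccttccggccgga
POLA2 (chr11:65261862-65261961, plus strand): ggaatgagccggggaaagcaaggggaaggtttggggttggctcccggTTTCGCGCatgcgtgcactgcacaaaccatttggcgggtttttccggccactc
CDT1 (chr16:88803689-88803788, plus strand): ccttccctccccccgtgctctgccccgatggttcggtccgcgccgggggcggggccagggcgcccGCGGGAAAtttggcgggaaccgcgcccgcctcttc
E2F1 (chr20:33686386-33686485, minus strand): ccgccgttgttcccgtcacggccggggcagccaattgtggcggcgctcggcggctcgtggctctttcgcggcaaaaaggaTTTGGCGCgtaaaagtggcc
ORC5 (chr7:104208014-104208113, minus strand): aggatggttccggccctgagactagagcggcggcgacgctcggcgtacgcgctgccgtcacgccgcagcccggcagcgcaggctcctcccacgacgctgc
PRIM1 (chr12:56752324-56752423, minus strand): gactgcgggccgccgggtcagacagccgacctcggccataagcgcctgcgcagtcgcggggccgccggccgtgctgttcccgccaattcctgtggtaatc

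The letters searched for E2F were TTTCCCGC, TTTCGCGC, TTTGGCGC and TTTGCGCG on both strands, and copies may overlap, as they do at both places in the MCM6 stretch. In the 300-base windows, 23 of the 43 members held at least 1 of them (53.5%), against 3.20% of all 27305 promoters and 4.36% of the 15842 promoters of protein-coding genes. A CCAAT box, letters bound by the factor NF-Y, stood in 58.1% of the member windows and in 35.7% of all windows. The letters TTTGAA, which G2/M genes often carry as the CHR element, stood in 2 of the 43 member windows (4.65%) and in 15.4% of all windows. Over every listed start of a gene, 25 of 43 members held E2F letters (58.1%), against 3.80% of genes. A match of letters is a description of the window and was not tested as a binding site.

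No member passed the test over the whole table. With limma's Benjamini-Hochberg adjustment over 28230 probe sets, 1 probe set was called at 0.05 (0.00354% of those tested), that of TXNIP, a glucose-responsive arrestin, and the smallest adjusted p among the members was 0.17, for ORC5. As a description, 42 of the 49 members had a lower mean in fructose, where 43.5% of all represented genes did. The median difference of the members was -0.14, or 1.10-fold lower in fructose, and that of all represented genes was 0.02. At an unadjusted p under 0.05, 17 of 49 members were lower (34.7%) and 0 higher, where 5.74% of all represented genes were lower and 8.53% higher. The members' count was 8 without fructose replicate 1, 7 without fructose replicate 3, 11 without glucose replicate 2 and 6 without glucose replicate 3. In these fits 3.82 to 4.60% of all represented genes were lower at that threshold. In 24 of the 49 (49.0%) all fructose arrays lay below all glucose arrays, which 10.0% of represented genes did, and in 0 they all lay above, the arrangement of 13.0% of represented genes. All 49 members were brighter than the median probe set, and among the represented genes that bright 45.8% were lower in fructose, 7.77% were lower at an unadjusted p under 0.05 and 14.1% had their fructose arrays below all glucose arrays.

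**Figure D1:**
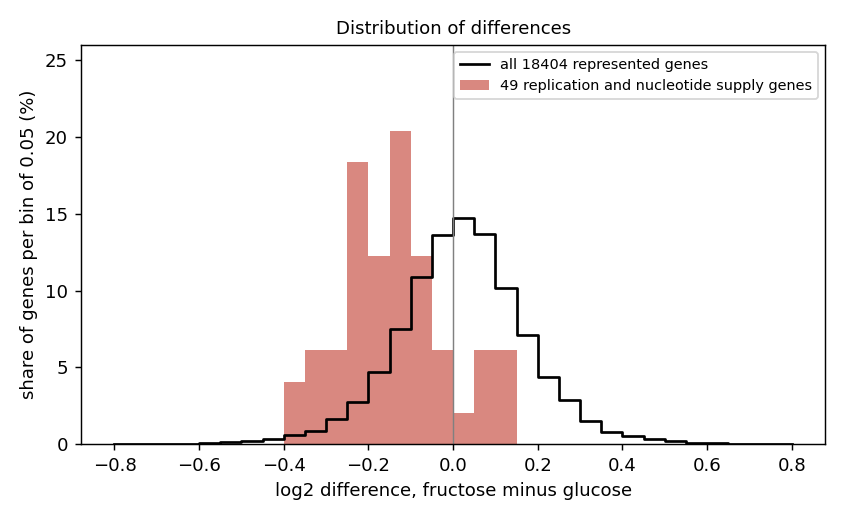
Share of genes (percent, vertical axis) in bins of 0.05 of the log2 difference, fructose minus glucose (horizontal axis), for the 49 replication and nucleotide supply genes (bars) and all 18404 represented genes (line, 27 genes beyond the axis). The bars lie mostly left of 0, around their median of -0.14, while the line peaks near 0.

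Whether single members passed depended on the variance model and on which probe sets were tested. With a variance prior that follows intensity and is robust to outlying genes, limma called 473 probe sets, among them 4 members, all lower in fructose. These were PCNA (adjusted p = 0.021), GINS1 (0.033), PRIM1 (0.034) and ORC5 (0.036), in a fit that called 0.951% of represented genes lower and 1.16% higher. Among bright probe sets alone 325 were called, and 2 members passed, ORC5 (adjusted p = 0.040) and PCNA (0.046), where 1.08% of genes were called lower and 1.43% higher. Over all alternatives the adjusted p ran from 0.021 to 0.40 for PCNA, from 0.033 to 0.41 for GINS1, from 0.034 to 0.41 for PRIM1 and from 0.036 to 0.39 for ORC5.

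The 3 fructose cultures were not alike. The median of the members, set against the glucose mean of each gene, was -0.15, -0.06 and -0.22 on fructose replicates 1, 2 and 3, and -0.02, -0.03 and 0.05 on the glucose arrays. Fructose replicate 2 gave the highest of the 3 fructose values, or tied for it at 2 decimals, in 41 of 49 members. The tie was RFC1, where fructose replicate 1 was slightly higher before rounding. Among all represented genes replicate 2 was highest, without rounding, in 33.0%. Fructose replicate 3 gave the lowest in 35 of 49 members, whereas it did so in 37.2% of all represented genes. In 39 members fructose replicates 1 and 3 both lay below all glucose arrays, which 15.3% of represented genes did, and in 15 of these 39 fructose replicate 2 did not. Without replicate 2 the members' median was -0.18.

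**Figure D2:**
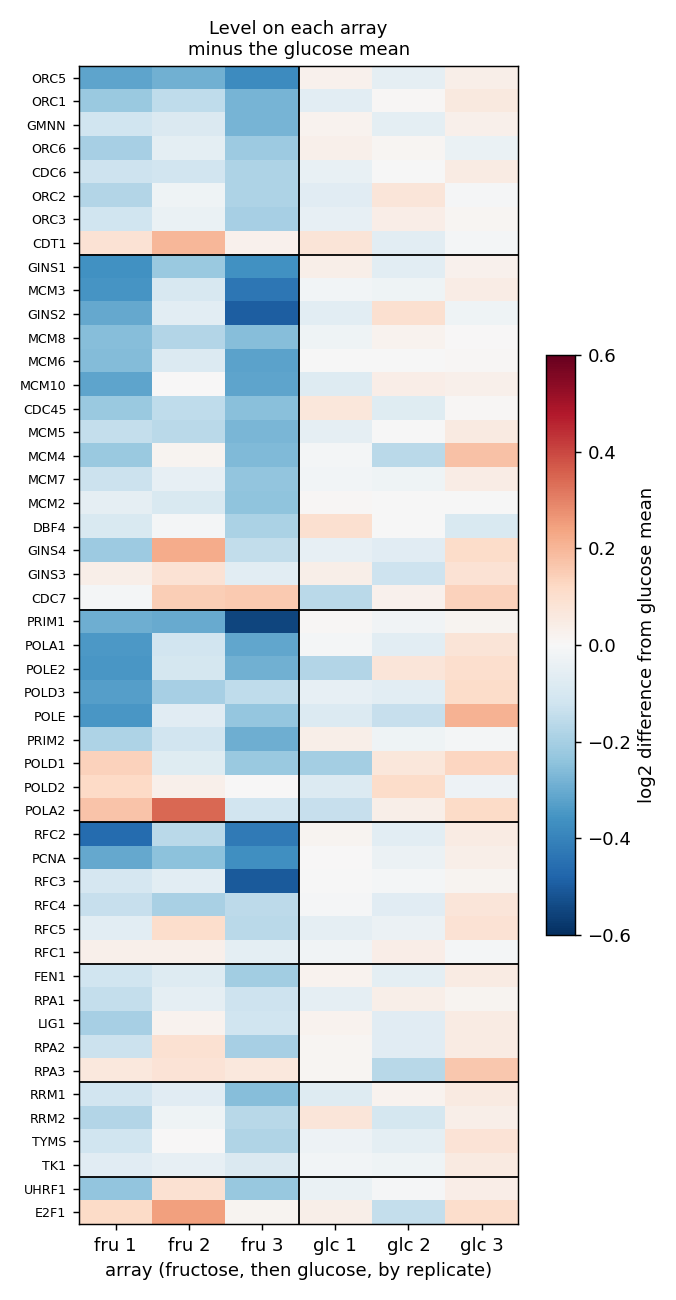
Log2 level on each array minus that gene's glucose mean (colour scale, log2 units) for 49 genes (rows, ordered by complex from origin licensing at the top to regulators) and 6 arrays (columns, fructose then glucose). The columns of fructose replicates 1 and 3 are the darkest, with medians of -0.15 and -0.22, and replicate 2 is paler with -0.06.

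In an RNA extract from a whole culture, fewer cells in S phase and less of these RNAs per cell cannot be told apart. MKI67, which is expressed in cycling cells and absent in resting cells, showed a difference of -0.02 (95% interval -0.16 to 0.13). It is 1 gene of an E2F and RB list of 16, of which 12 were lower in mean and 4 higher. In that list MYBL2 differed by -0.28, CCNA2 by -0.07 and E2F7 by 0.30. The share of cells in S phase was not measured. The first principal component of the whole table put fructose replicate 2 at 5.67, between the other fructose arrays (17.9 and 19.3) and the glucose arrays (-14.8 to -13.5). The 4091 probe sets taken as array controls had a median difference of -0.06, and their part in the members' differences was not tested. Of 6 genes that mark this mesenchymal line, among them VIM and CD44, 6 were brighter than at least 90.6% of probe sets, with a summed intensity of 11100 to 11550 on the fructose arrays and 11010 to 11070 on the glucose arrays. The receptor genes ESR1 and PGR were brighter than 33.5% and 11.9% of probe sets, and the receptor gene ERBB2 was brighter than 69.2%. Luminal markers (4 of 8 above the median probe set) summed to 2212 to 2398 in fructose and 2136 to 2269 in glucose, leukocyte markers (1 of 5, CD68) to 1714 to 1941 in fructose and 1592 to 1677 in glucose, and fibroblast markers (1 of 6, COL1A1) to 107 to 115 in fructose and 113 to 116 in glucose. Within the luminal list the markers went both ways: EPCAM, an epithelial adhesion protein, had 7.40, 7.65 and 7.36 in fructose and 7.94, 8.03 and 7.86 in glucose, a difference of -0.47, with no overlap, whereas KRT19, which made up most of the sum, differed by 0.12. The part of these markers in the members' differences was not tested.

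Origin licensing genes had a median of -0.15 over 8 members, with 7 lower in fructose and 5 whose fructose arrays all lay below the glucose arrays. ORC5, a subunit of the origin recognition complex, had log2 levels of 7.20, 7.23 and 7.14 in fructose and 7.54, 7.46 and 7.55 in glucose. The groups stood well apart, and the difference was -0.33 (SE 0.07, 95% interval -0.48 to -0.17, 1.25-fold lower, limma adjusted p = 0.17). ORC1, the subunit that human cells degrade in S phase, had 6.97, 7.04 and 6.91 in fructose and 7.13, 7.20 and 7.25 in glucose, a difference of -0.22 (SE 0.07, adjusted p = 0.29) without overlap. ORC6, the smallest subunit, had 8.43, 8.57 and 8.41 in fructose and 8.66, 8.64 and 8.59 in glucose. Its fructose replicate 2 came within 0.02 of the lowest glucose array, and the difference was -0.16 (SE 0.07, adjusted p = 0.41). The subunits ORC2 (-0.13) and ORC3 (-0.12) were also lower, each with overlapping groups.

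The loader CDC6 had 9.59, 9.60 and 9.53 in fructose and 9.67, 9.71 and 9.76 in glucose, without overlap and with a difference of -0.14 (95% interval -0.29 to 0.02, adjusted p = 0.42). Its partner CDT1 was the one licensing gene with a higher mean, at 5.77, 5.88 and 5.71 in fructose and 5.76, 5.62 and 5.67 in glucose. Those groups overlapped, and the difference of 0.10 had a 95% interval from -0.08 to 0.29 (adjusted p = 0.62). GMNN, the geminin protein that blocks CDT1 after S phase has begun, had 9.08, 9.11 and 8.92 in fructose and 9.22, 9.14 and 9.23 in glucose. Its difference was -0.16 (SE 0.08, adjusted p = 0.43), so the licensing factor and its inhibitor had means on opposite sides of 0, neither past the test.

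The helicase and the factors that switch it on had a median of -0.20 over 15 members, with 13 lower and 9 without overlap. All 6 subunits of the MCM2 to MCM7 ring had a lower mean in fructose, with a median of -0.18, and in 5 of the 6 the groups did not overlap. MCM3 had 8.53, 8.79 and 8.45 in fructose and 8.87, 8.86 and 8.93 in glucose, a difference of -0.30 (SE 0.10, 95% interval -0.53 to -0.06, adjusted p = 0.30). Fructose replicate 2 lay close under the glucose arrays while the other fructose arrays lay well below them. MCM2 had 6.46, 6.42 and 6.27 in fructose against 6.52, 6.51 and 6.51 in glucose (difference -0.13, SE 0.07, adjusted p = 0.51). MCM7 had 9.37, 9.45 and 9.26 in fructose against 9.48, 9.47 and 9.54 in glucose (difference -0.14, SE 0.07, adjusted p = 0.48). Both were lower by less than MCM3, and in both the fructose array nearest to glucose lay close under it, by 0.04 in MCM2 and 0.02 in MCM7. MCM6 (-0.22), MCM5 (-0.20) and MCM4 (-0.16) made up the rest of the ring, and only MCM4 had overlapping groups.

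CDC45 and the 4 GINS subunits, which ride with the ring as the active helicase, split into 3 with non-overlapping groups and 2 near 0. GINS1 had 8.12, 8.26 and 8.12 in fructose and 8.52, 8.42 and 8.51 in glucose, a difference of -0.32 (SE 0.07, 95% interval -0.49 to -0.15, 1.25-fold lower, adjusted p = 0.19). GINS2 (-0.29) and CDC45 (-0.21) were lower as well, GINS2 by a margin between the nearest arrays of only 7.31e-05, so that its place among the members without overlap rests on a tie at the printed precision, whereas GINS3 differed by 0.02 and GINS4 by -0.05 with intervals of -0.18 to 0.21 and -0.35 to 0.25. GINS proteins work as 1 complex, yet their transcripts spanned 0.34 on this scale, from GINS1 to GINS3, and the difference between subunits was not tested. Among the activating factors, MCM10 differed by -0.21, with fructose replicate 2 inside the glucose range. DBF4, the regulatory subunit of the CDC7 kinase, differed by -0.10 and CDC7 itself by 0.10, both with overlap. MCM8, a relative of the ring proteins that acts in recombination repair, had 8.05, 8.13 and 8.05 in fructose and 8.28, 8.33 and 8.31 in glucose. Each group was tight, and the difference was -0.23 (SE 0.06, 95% interval -0.38 to -0.08, adjusted p = 0.23).

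**Figure D3:**
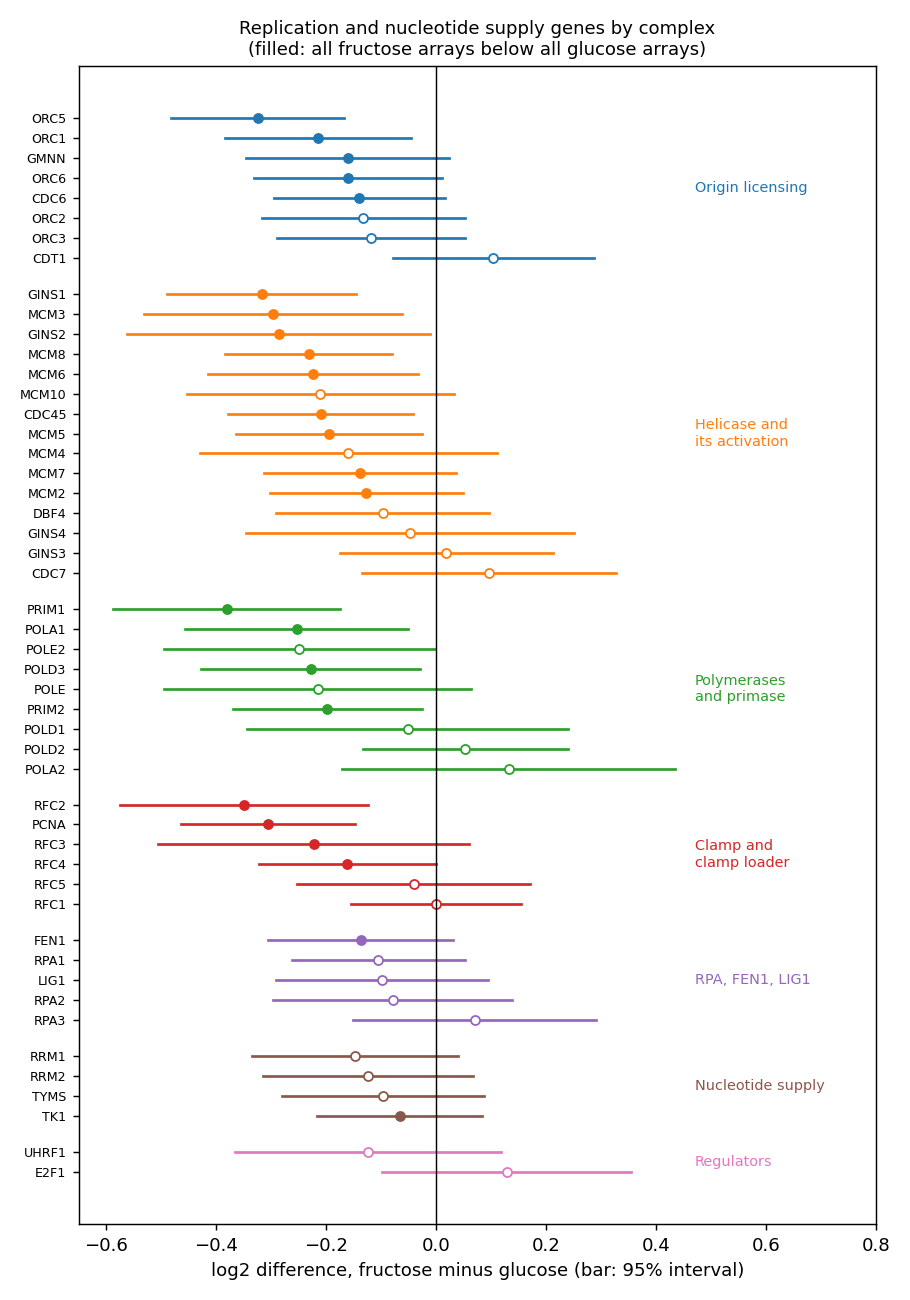
Log2 difference, fructose minus glucose (horizontal axis), with its 95% limma interval for each of the 49 genes (rows, grouped and coloured by complex). Filled points are the 24 genes whose fructose arrays all lie below the glucose arrays, and 42 of the 49 points lie left of 0.

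Polymerase and primase genes had the lowest median of the functional groups, -0.22 over 9 members, with 7 lower and 4 without overlap. That rank came from the fit of all 6 arrays together and did not hold on each array. On fructose replicate 3 the polymerase median was -0.23, against -0.26 for both the helicase and the clamp group. Without fructose replicate 1 it was -0.18, against -0.23 for the clamp group. PRIM1, the catalytic subunit of primase, had the most negative difference of all 49 members. Its levels were 8.29, 8.28 and 8.03 in fructose and 8.59, 8.56 and 8.60 in glucose, a difference of -0.38 (SE 0.09, 95% interval -0.59 to -0.17, 1.30-fold lower, adjusted p = 0.19). Fructose replicate 3 was the lowest array, and the other fructose arrays lay at -0.29 and -0.30 from the glucose mean. PRIM2, the large primase subunit, had 7.39, 7.46 and 7.28 in fructose and 7.61, 7.55 and 7.56 in glucose (difference -0.20, SE 0.07, adjusted p = 0.33). POLA1, the catalytic subunit of polymerase alpha, had 6.60, 6.83 and 6.63 in fructose and 6.93, 6.88 and 7.02 in glucose (difference -0.25, SE 0.09, adjusted p = 0.30). These genes of the priming complex had no overlap between groups, while the other gene of that complex, POLA2, the accessory subunit, differed by 0.13 with an interval of -0.17 to 0.43 and spread over 7.17 to 7.63 in fructose and 7.15 to 7.40 in glucose.

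Of polymerase epsilon, which extends the leading strand, the members POLE and POLE2 differed by -0.22 and -0.25, each with overlapping groups. Its small subunits POLE3 and POLE4, in the wider list and named after their values were seen, differed by -0.07 and 0.13. Polymerase delta, which extends the lagging strand, was mixed. Its subunit POLD3 differed by -0.23 without overlap, POLD1, the catalytic subunit, by -0.05 (95% interval -0.34 to 0.24), and POLD2 by 0.05 (95% interval -0.13 to 0.24). POLD4, the smallest delta subunit, came from the wider list and differed by 0.22 (SE 0.07, adjusted p = 0.29), with its fructose arrays all above the glucose arrays.

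The clamp and its loader had a median of -0.19 over 6 members, all 6 with a lower mean and 4 without overlap. Without fructose replicate 3 that median was -0.13. PCNA, the sliding clamp that holds polymerases on DNA, had 8.91, 8.97 and 8.85 in fructose and 9.22, 9.18 and 9.25 in glucose. A gap of 0.21 separated the highest fructose array from the lowest glucose array, and the difference was -0.31 (SE 0.07, 95% interval -0.47 to -0.15, 1.24-fold lower, adjusted p = 0.17). RFC2, a small loader subunit, had 8.33, 8.63 and 8.37 in fructose and 8.81, 8.73 and 8.84 in glucose, a difference of -0.35 (SE 0.10, adjusted p = 0.23). RFC4, another small subunit, had 9.07, 9.01 and 9.05 in fructose and 9.20, 9.14 and 9.28 in glucose, a difference of -0.16 (SE 0.07, adjusted p = 0.38). For RFC2 fructose replicate 2 lay nearest to glucose, and for RFC4 the fructose arrays were within 0.06 of each other. RFC3 differed by -0.22, with fructose replicate 3 at 7.84 and the other fructose arrays at 8.24 and 8.28, close under glucose (8.33 to 8.36). RFC5 (-0.04) and the large subunit RFC1 (-0.00061, 95% interval -0.16 to 0.15) lay near 0.

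**Figure D4:**
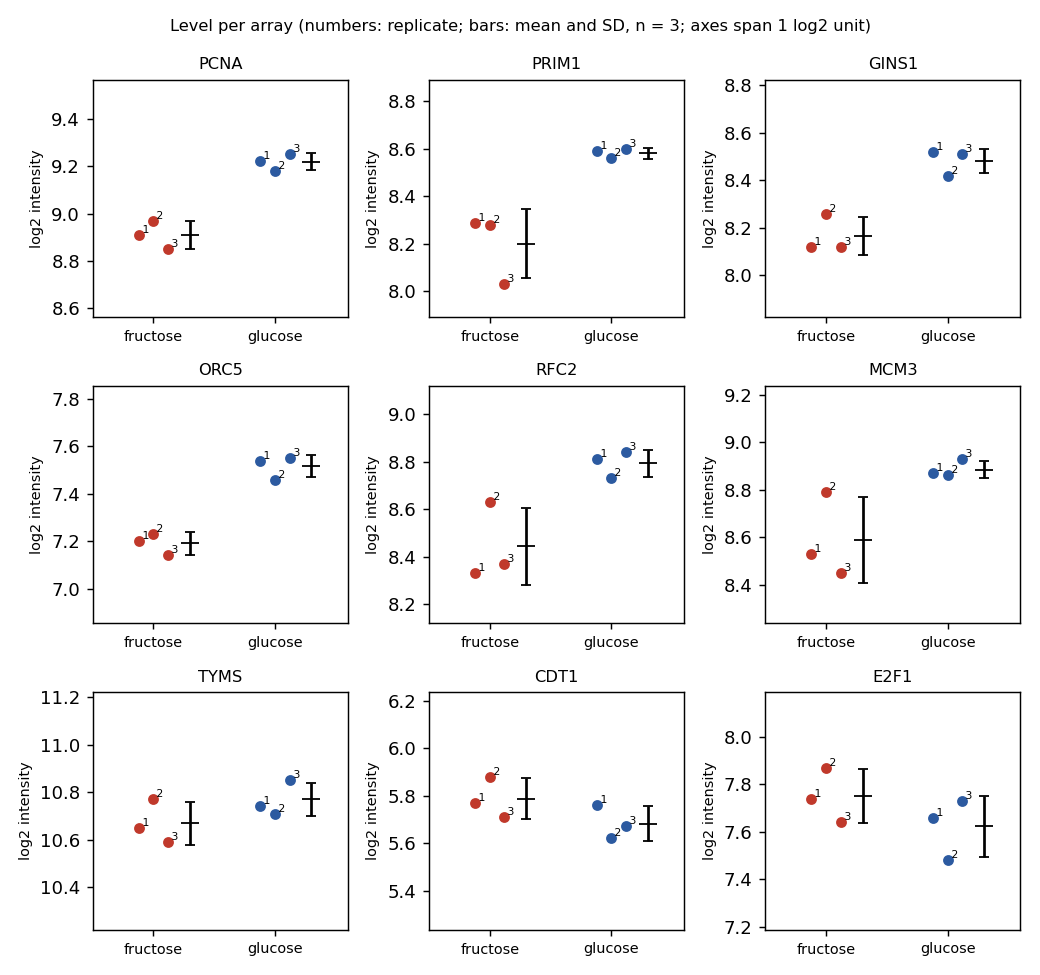
Log2 intensity on each array (vertical axes, each spanning 1 log2 unit) for 9 genes in fructose (left of each panel) and glucose (right), with replicate numbers and the mean and SD (n = 3 arrays). PCNA, PRIM1, GINS1, ORC5, RFC2 and MCM3 have no overlap between groups, and TYMS, CDT1 and E2F1 overlap.

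Genes that protect single strands and join Okazaki fragments had a smaller median, -0.10 over 5 members, with 4 lower and 1 without overlap. Leaving out fructose replicate 2 gave -0.16, and leaving out fructose replicate 1 gave -0.06. FEN1, the flap nuclease that trims Okazaki fragments, had 9.47, 9.51 and 9.38 in fructose and 9.61, 9.53 and 9.64 in glucose (difference -0.14, SE 0.07, adjusted p = 0.46). LIG1, the ligase that seals them, had 7.20, 7.42 and 7.28 in fructose and 7.42, 7.33 and 7.45 in glucose (difference -0.10, SE 0.08, adjusted p = 0.66), and leaving out fructose replicate 1 gave -0.05, leaving out fructose replicate 2 gave -0.16. FEN1 was the member without overlap, by a margin of 0.02. Of the RPA subunits that coat single strands, RPA1 had 7.36, 7.45 and 7.38 in fructose and 7.45, 7.54 and 7.52 in glucose (difference -0.11, SE 0.07, adjusted p = 0.55). RPA2 differed by -0.08 and RPA3 by 0.07, so the 3 RPA genes had means on both sides of 0.

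Nucleotide supply genes were all 4 lower in mean, by a median of -0.11, and 1 had no overlap. RRM1, the large subunit of ribonucleotide reductase, had 9.67, 9.72 and 9.53 in fructose and 9.71, 9.81 and 9.84 in glucose (difference -0.15, 95% interval -0.34 to 0.04, adjusted p = 0.48). RRM2, its S-phase subunit, had 8.41, 8.56 and 8.42 in fructose and 8.66, 8.48 and 8.62 in glucose (difference -0.12, 95% interval -0.31 to 0.07, adjusted p = 0.56). In both genes 1 array of a group reached into the range of the other. TYMS, which makes thymidylate, had 10.65, 10.77 and 10.59 in fructose and 10.74, 10.71 and 10.85 in glucose (difference -0.10, 95% interval -0.28 to 0.09, adjusted p = 0.64). TK1, the cytosolic thymidine kinase, had 8.83, 8.85 and 8.81 in fructose and 8.88, 8.87 and 8.95 in glucose (difference -0.07, 95% interval -0.22 to 0.08, adjusted p = 0.70). TK1 was the gene without overlap, by 0.02, and had the smallest difference of the 4. No interval in this group lay wholly below 0, whereas 17 of the 49 members had such an interval.

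The pair of regulators differed in sign. E2F1, an activator of S-phase genes, had 7.74, 7.87 and 7.64 in fructose and 7.66, 7.48 and 7.73 in glucose, a difference of 0.13 (95% interval -0.10 to 0.35, adjusted p = 0.62), which was 0.06 without glucose replicate 2 and 0.07 without fructose replicate 2. UHRF1, which brings DNA methylation to new strands, had 6.42, 6.75 and 6.43 in fructose and 6.62, 6.65 and 6.70 in glucose, a difference of -0.13 (95% interval -0.37 to 0.12, adjusted p = 0.65). Fructose replicate 2 was the highest array of all 6 for both genes. The UHRF1 difference was -0.23 without fructose replicate 2, and -0.07 without either fructose replicate 1 or fructose replicate 3. A second, dim UHRF1 probe set differed by 0.01, and the average of both probe sets by -0.06. The median of the pair was 0.0015, and it was -0.08 without fructose replicate 2.

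Side by side, the group medians ran from -0.22 for polymerases, -0.20 for the helicase and -0.19 for the clamp and loader, through -0.15 for licensing and -0.11 for nucleotide supply, to -0.10 for RPA, FEN1 and LIG1. Members at an unadjusted p under 0.05, all lower, numbered 5 of 9, 7 of 15, 3 of 6, 2 of 8, 0 of 4 and 0 of 5 in the same order. Of all represented genes 5.74% were lower at that threshold, and of those brighter than the median probe set 7.77%. In groups of 4 and 5 genes a count of 0 cannot be told apart from such shares. Whether the complexes differ from one another was not tested, and on fructose replicate 2 their medians were -0.11, -0.06, -0.11, -0.07, -0.04 and 0.02. The 7 members with a higher mean were CDT1, CDC7, GINS3, POLA2, POLD2, RPA3 and E2F1. All 7 had overlapping groups, and 4 of the 6 with a promoter window (CDT1, E2F1, GINS3 and POLA2) held E2F letters in it, beside 23 of the 43 members with a window.

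Members with and without the searched E2F letters were set side by side, and the split was not tested. Only exact letters were searched, so a window counted as without them can hold a near form. The CDC45 window, for example, holds tttggcggg. The 23 members with the motif had a median of -0.14 (range -0.32 to 0.13, 19 lower), and the 20 without it also had a median of -0.14 (range -0.38 to 0.10, 18 lower). PCNA, MCM6, GINS2 and POLA1 carry the motif in the stretches above and differed by -0.31, -0.22, -0.29 and -0.25. POLA2, CDT1 and E2F1 carry it too and differed by 0.13, 0.10 and 0.13. ORC5 and PRIM1, with none of the letters searched in their windows, differed by -0.33 and -0.38.

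Other genes of the same processes were read from 3 further lists, and no gene in them passed the test over the whole table. Among 28 other licensing, firing and fork factors the median was -0.15, close to that of the members, with 22 lower. In 13 (46.4%) the fructose arrays lay below all glucose arrays and in 2 (7.14%) above them. Of all represented genes 10.0% lay below and 13.0% above. At an unadjusted p under 0.05, 11 of the 28 were lower (39.3%) and 1 higher (3.57%). Of all represented genes 5.74% were lower and 8.53% higher at that threshold. MTBP, a partner of the origin-firing factor TICRR, differed by -0.31 (SE 0.07, adjusted p = 0.17), DSCC1, part of an alternative clamp loader, by -0.29 (SE 0.09, adjusted p = 0.26), and ORC4, the origin recognition subunit not among the members, by -0.19 (SE 0.07, adjusted p = 0.31). POLD4 was the gene higher at an unadjusted p under 0.05.

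The list of other deoxynucleotide enzymes (15 of 17 measured) had a median of -0.0099, with 8 lower and 7 higher, and it changed sign to 0.0053 without fructose replicate 3 and was -0.019 without fructose replicate 2. TK2, the mitochondrial thymidine kinase, differed by 0.36 (SE 0.08, adjusted p = 0.19) with its fructose arrays above all glucose arrays. The cytosolic enzyme TK1 differed by -0.07, and the contrast between these kinases was not tested. CMPK1, a nucleoside monophosphate kinase, differed by -0.19, DUT, which removes dUTP, by -0.20 and DCTD, which makes dUMP, by 0.13. In the E2F and RB network (16 genes, median -0.07, 12 lower), E2F7, a repressor of E2F targets, differed by 0.30 (SE 0.07, adjusted p = 0.21), with all fructose arrays above glucose. Leaving out fructose replicate 3 gave the network a median of -0.02, and leaving out fructose replicate 2 gave -0.10. MYBL2, a cell cycle factor transcribed under E2F, differed by -0.28, RBL1, the pocket protein p107, by -0.19 and E2F2 by -0.19. On this network 2 genes were lower (12.5%) and 1 higher (6.25%) at an unadjusted p under 0.05. Of all represented genes 5.74% were lower and 8.53% higher at that threshold.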

How the data were processed

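Per the submitters' processing notes RMA was used, and the deposited series table gives the resulting intensity of each probe set on every array. Which RMA version or filter was used is not stated in these sources. All values were positive and reached 7938 among the tested probe sets, so they were read as linear and log2 was taken, with no pseudocount and the authors' normalization kept. Of 32321 rows, 4091 with identifiers below the lowest annotated one were taken as controls, and 28230 were tested in R 4.3.3 by limma 3.58.1 (default eBayes, two-sided, no covariate, Benjamini-Hochberg, threshold 0.05). The fit was checked on simulated tables with known changes, all larger than that of any member, so the check does not cover differences of the members' size. No member was filtered. Array data carry no read depth, and 3 arrays a group limit precision (median SE of a member's difference 0.08). Members, functional groups and the further lists were chosen with earlier results of these data known. Per-array values were given for the 3 members of each group with the smallest p, all of smaller groups, and PCNA, MCM2, MCM7, CDC6, CDT1, GMNN, RRM2, TYMS, TK1, E2F1 and UHRF1, and from each further list the 4 genes with the smallest p were named. A planned search of protein motifs was not run here.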

Additional observations from a re-analysis of the deposited data

How the results depend on the processing

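No member was called with any array left out, after repeated quantile normalization, after centring arrays on their median, with array weights, with probe sets averaged per gene or with the replicate block, and 1 probe set was called in all in each of these fits. Bright probe sets alone gave 325 calls and 2 members, and the intensity trend with robust variances gave 473 calls and 4 members. With an array left out, members lower at an unadjusted p under 0.05 numbered 6 to 19, where 3.82 to 5.97% of all represented genes were lower. Members with fructose below glucose numbered 24 to 39, where 12.9 to 15.3% of all represented genes lay so. Fewer arrays make such a separation easier to reach. Members with fructose above glucose numbered 0 to 3, and that share over all genes was not taken in these fits. Members lower in mean numbered 38 to 43, where 41.8 to 46.4% of all represented genes were lower. The members' median ran from -0.18 to -0.10, that of licensing genes from -0.19 to -0.11, of the helicase from -0.24 to -0.15, of polymerases from -0.25 to -0.17, of the clamp from -0.23 to -0.13, of nucleotide supply from -0.16 to -0.08, of RPA, FEN1 and LIG1 from -0.16 to -0.06, and of the regulators from -0.08 to 0.05. The 26 members given with values on every array kept their sign in all settings, as did all other members but 6 with differences near 0 (GINS3, GINS4, POLD1, RFC1, RFC5 and RPA3), which changed sign in at least 1 setting. Leaving out fructose replicate 3 moved MCM2 to -0.07, MCM7 to -0.09, RRM1 to -0.09, GMNN to -0.10 and TYMS to -0.06, leaving out glucose replicate 3 moved TYMS to -0.06 and TK1 to -0.04, and leaving out fructose replicate 2 moved CDT1 to 0.06 and TYMS to -0.15. Centring moved the median of all genes to -0.0035 and quantile normalization to 0.0067. Replicate numbers did not pair the arrays: same-numbered arrays deviated together with correlations of -0.026, -0.021 and -0.054. The fit with the replicate block left 12 members lower at an unadjusted p under 0.05, where 4.24% of all represented genes were lower.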
